A study of Drosophila melanogaster with 12 samples.

Results

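The genes for the proteins of the mitochondrial ribosome were followed across sorted enteroblasts of 4 fly genotypes. They were chosen by name, as rows whose FlyBase identifier maps to a symbol that begins with mRpL or mRpS. The annotation holds 73 such symbols, and 69 of them were among the 8802 genes of the count table. Of these 69, 45 have mRpL symbols, called large-subunit genes here, and 24 have mRpS symbols, called small-subunit genes. That letter alone set the subunit, and the place of each protein in the ribosome was not checked. All 69 passed the filter on low counts and were among the 8069 genes tested. mRpL13, mRpL53, mRpS34 and mRpS5 had no matching identifier and were not analysed here.

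Enteroblasts are the progenitor cells of the midgut that differentiate into absorptive enterocytes. The cells were sorted for high GFP signal and large size from posterior midguts (regions R3 to R5) of virgin females aged 9 days, kept at 29 °C for the last 6 days, and each sample pooled more than 20 females. All flies carried esg-Gal4, which drives in stem cells as well as enteroblasts, with UAS-GFP and the heat-sensitive repressor tubGal80TS, so that UAS transgenes were on for those 6 days. The RNAiSvb group carried the UAS-SvbRNAi hairpin, directed at Shavenbaby (Svb), the transcription factor that the gene ovo encodes. The SvbACT group carried UAS-SvbACT::GFP, named as the constitutive activator form, and the SvbREP group carried UAS-Svb3Kmut::GFP, named as the constitutive repressor form. Controls came from a cross of the same driver line to Canton-S and had no such transgene. Each group had 3 replicates, made on different days, and all 12 libraries were single reads of 100 nt. The comparisons addressed which genes respond to the loss of Shavenbaby and to its activator and repressor forms.

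Mitochondrial ribosomes translate the few messages of the mitochondrial genome, which encode core subunits of the respiratory chain and of ATP synthase. The ribosomal RNAs are encoded in mitochondrial DNA, whereas the ribosomal proteins are encoded in the nucleus, made in the cytosol and imported, so that assembly draws on 2 genomes. Many of these proteins have bacterial counterparts, and others were added during the evolution of mitochondria. In the midgut, mitochondrial activity is known to change as progenitors differentiate into enterocytes.

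Libraries held between 2186283 and 7444253 counts, of which the 69 genes took 3158 to 11186 counts (0.0982% to 0.165% of a library). A few libraries stood apart in the spread of these genes. The SD of their deviations from each gene's mean was 0.77 in SvbACT replicate 2, 0.82 in SvbACT replicate 3 and 0.93 in SvbREP replicate 3 on the log2 scale, against 0.34 to 0.48 in the other 9 libraries. The same 3 libraries had 930, 895 and 1013 genes of the table at 0 counts, against 298 to 544 in the others. SvbREP replicate 3 was also the shallowest library, whereas SvbACT replicates 2 and 3 were in the middle of the range of depths. The gene ovo had 15.4 to 61.1 CPM (counts scaled to the size of the library) in RNAiSvb libraries, 2005 to 2604 in SvbACT, 1111 to 1751 in SvbREP and 0.279 to 16.3 in controls, so that it was not lower in the group labelled as knockdown. Of 10 listed stem cell and enteroblast markers, 8 were in the table and all 8 were detected in every group, peb at 969 CPM or more in every library. Of 10 listed markers of hemocytes, fat body and trachea, 5 were in the table, and of these Hml was at 0 in all libraries. The 5 summed to 0.794 to 9.72 CPM in RNAiSvb, 1.33 to 3.64 CPM in SvbACT, 2.80 to 6.95 CPM in SvbREP and 0.559 to 10.2 CPM in controls.

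The 69 genes were moderately expressed. Their median level over the 12 libraries was 18.0 CPM per kilobase of exon, against 13.6 for all tested genes with a known exon length. The genes are short, with a median exon length of 783 bases (327 to 2078) against 2107.5, so that without correction for length their median was 13.1 CPM, against 25.4 CPM. Large-subunit and small-subunit genes had close median levels of 17.3 and 19.9 CPM per kilobase. The proteins of a ribosome are, with few exceptions, present in 1 copy each, but the messages spanned a wide range of levels, as the plot of levels per gene shows.

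**Figure D1:**
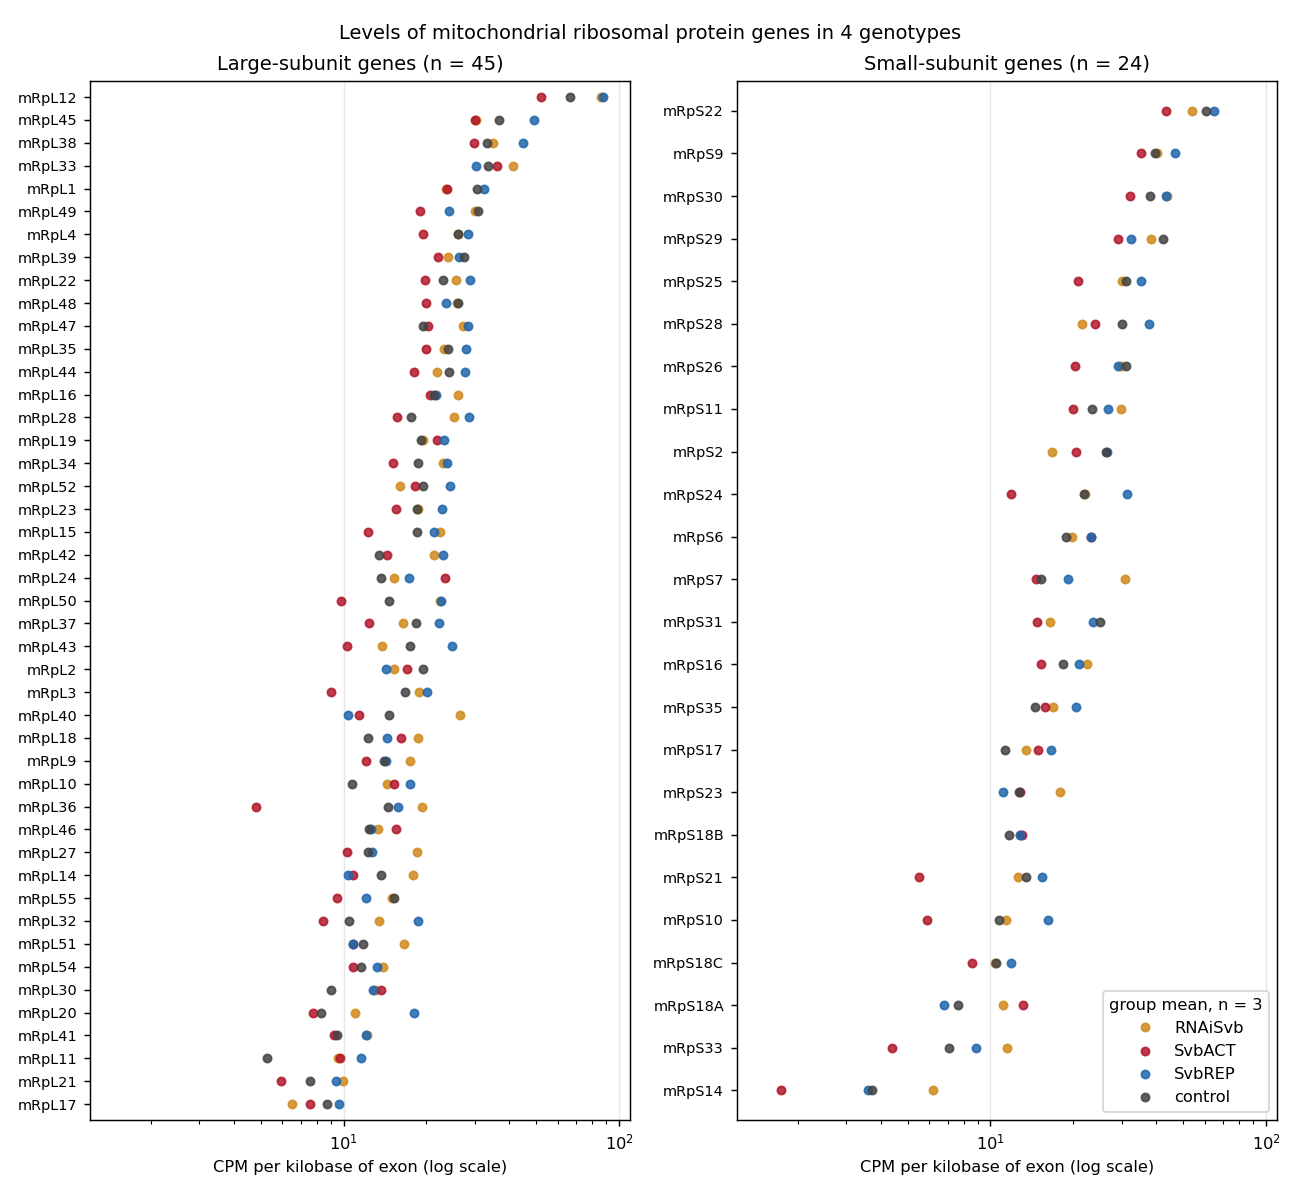
Mean level of each gene in each genotype, in CPM per kilobase of exon on a log scale (3 libraries per point). By symbol letter, large-subunit genes are on the left and small-subunit genes on the right, ordered by their mean over all libraries. mRpL12 lies at the top at 73.0 CPM per kilobase and mRpS14 at the bottom at 3.80, and the SvbACT point is the lowest of the 4 for 44 of the 69 genes.

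The highest level per length belonged to mRpL12, the stalk protein that recruits translation factors and that, unlike the other proteins, sits on the ribosome in several copies. It had 73.0 CPM per kilobase. mRpS22 followed with 55.6 CPM per kilobase. mRpS9, the counterpart of a bacterial protein that reaches the tRNA sites of the small subunit, had 40.4. mRpS30 had 39.3 and mRpL45, whose mammalian homologue faces the inner membrane, had 36.5 CPM per kilobase. The SDs over the 12 libraries were 18.4, 15.8, 6.52, 9.28 and 12.4 CPM per kilobase in that order. The gap between the 2 highest genes was smaller than the SD of mRpL12 but larger than that of mRpS22. mRpS9, mRpS30 and mRpL45 lay closer together than their SDs. These SDs include differences between genotypes and libraries, and the order of the genes was not tested. The other stalk-base protein genes lay far lower, mRpL10 at 14.4 and mRpL11 at 9.04 CPM per kilobase.

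The lowest levels were those of mRpS14 (3.80 CPM per kilobase), mRpS33 (7.95), mRpL17 (8.11), mRpL21 (8.19) and mRpL11 (9.04). The fly has 3 paralogues of the bacterial protein S18, mRpS18A, mRpS18B and mRpS18C, which in mammals occupy different places of the ribosome. Their levels of 9.66, 12.5 and 10.3 CPM per kilobase lay close together and in the lower part of the range.

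The genes that varied most between libraries had few counts. mRpL36, the counterpart of the smallest bacterial large-subunit protein, had the largest SD of log2 CPM, 1.64. It had 4.64, 2.14 and 0.379 CPM in the SvbACT libraries, 9.57, 13.8 and 0 in SvbREP, 11.0, 6.23 and 11.4 in RNAiSvb and 7.49, 8.80 and 5.30 in controls. mRpS14 (SD 1.41) had no count in SvbACT replicate 3 and SvbREP replicate 3, and mRpL36 none in SvbREP replicate 3. A count of 0 allows up to 3 counts, or 0.568 CPM in SvbACT replicate 3 and 1.40 CPM in SvbREP replicate 3. mRpS33 (SD 1.27) was under 1 CPM in the same 2 libraries and in SvbACT replicate 2. These 3 genes were thus low mainly in the 3 libraries with the most undetected genes. The most even genes were mRpS9 (SD 0.23), mRpL39 (0.26) and mRpL16 (0.27). mRpS9 had 52.8, 40.4 and 42.8 CPM in SvbACT, 56.8, 67.2 and 57.4 in SvbREP, 49.5, 59.8 and 46.2 in RNAiSvb and 47.4, 61.7 and 44.1 in controls.

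Summed over the 69 genes, the SvbACT libraries had 1114, 1055 and 1044 CPM. The SvbREP libraries had 1548, 1413 and 1475 CPM, the RNAiSvb libraries 1223, 1487 and 1401, and the controls 1207, 1538 and 1115 CPM. All 3 SvbACT sums lay under all 9 others, though the highest SvbACT library (1114 CPM) lay only just under the lowest control (1115 CPM). The RNAiSvb and SvbREP sums overlapped those of the controls, in which replicate 2 was far above replicates 1 and 3. Large-subunit sums were 636 to 651 CPM in SvbACT, 851 to 931 CPM in SvbREP, 734 to 892 CPM in RNAiSvb and 662 to 885 CPM in controls, with SvbACT under all others. Small-subunit sums were 405 to 466 CPM in SvbACT, 561 to 617 CPM in SvbREP, 489 to 595 CPM in RNAiSvb and 453 to 653 CPM in controls, so that SvbACT overlapped the controls there. Both sets of sums follow the symbol letter. mRpS30 alone added 37.8 to 111 CPM per library to the small-subunit sums. Which subunit overlapped the controls therefore depends on the placement of this gene, which was not checked, and no contrast between subunits is drawn. These are shares of each library's RNA. In bulk RNA of sorted cells, fewer cells of a type that expresses a gene and less of its RNA per cell cannot be told apart.

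**Figure D2:**
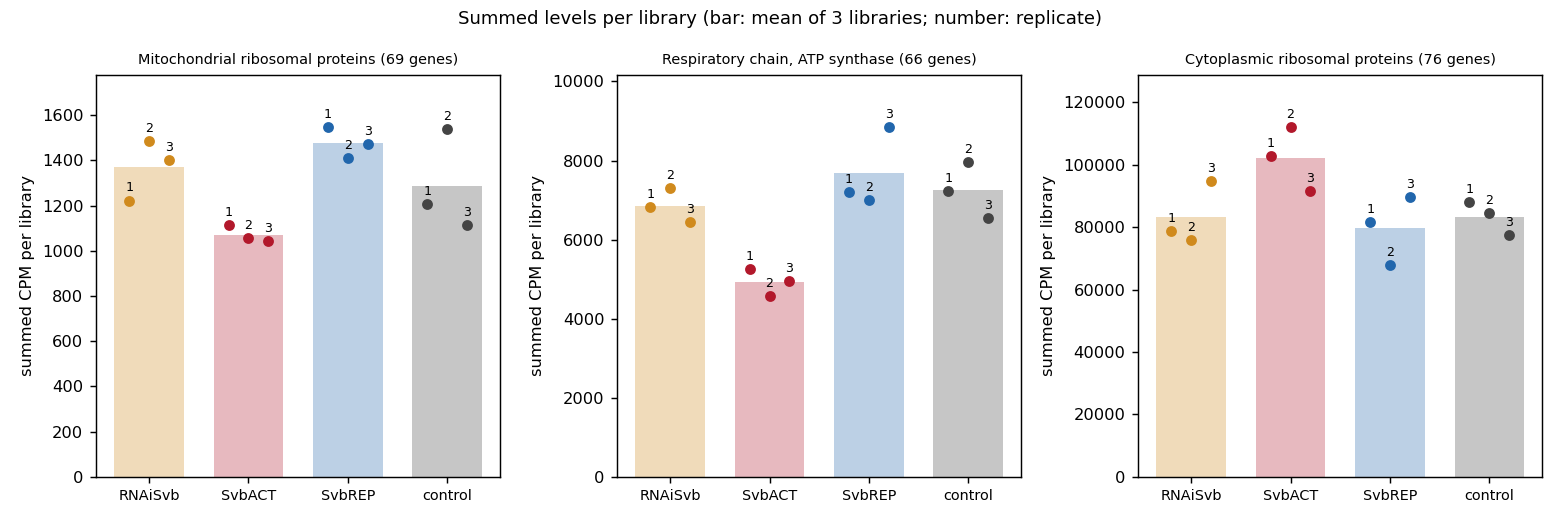
Summed CPM per library for the 69 mitochondrial ribosomal protein genes, 66 genes of the respiratory chain and ATP synthase and 76 cytoplasmic ribosomal protein genes, in 4 groups (point: library, numbered by replicate; bar: mean of 3). The SvbACT libraries are the lowest in the first 2 panels, at 1044 to 1114 CPM and 4574 to 5251 CPM, and in the third panel 2 of them are the highest.

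None of the 69 genes differed among the 4 genotypes by edgeR's quasi-likelihood F test after adjustment over all tested genes. The same test called 14.7% of all genes. The smallest adjusted p was 0.104, for mRpL12. At an unadjusted p under 0.05 there were 3 of the 69 genes (mRpL12, mRpS24 and mRpL3), whereas 27.0% of all tested genes passed that mark. DESeq2's likelihood ratio test called 1 of the 69, mRpL12.

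With the hairpin, none of the 69 genes changed relative to controls, beside 8.50% of all tested genes. At an unadjusted p under 0.05, 1 was lower (1.45%, beside 12.2% of all genes) and 0 were higher (beside 549 of all 8069 genes). DESeq2 called 0 as well. The lower gene was mRpS2, with 12.5, 18.0 and 15.7 CPM in RNAiSvb libraries, against 19.0, 31.1 and 22.6 CPM in controls. The groups did not overlap, but the change of -0.65 ± 0.29 (log2, SE) had an adjusted p of 0.230 by edgeR's quasi-likelihood test. The next smallest p-values were those of mRpS7, at 1.00 ± 0.57 (adjusted p = 0.381), and mRpS31, at -0.59 ± 0.35 (adjusted p = 0.410). mRpS7 is the counterpart of a bacterial protein that binds the head of the small subunit and had 21.3, 25.2 and 38.4 CPM in RNAiSvb, against 13.5, 21.5 and 6.98 CPM in controls.

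The median change of the 69 genes under the hairpin was 0.17 on the log2 scale, against 0.02 for all genes, with 47 above and 22 below 0. The size of this value depended on 1 library: without control replicate 2 it was 0.41, with a median of 0.08 for all genes. Among the 43 genes whose proteins have a bacterial counterpart 35 lay above 0 (median 0.28), and among the 25 without one 12 did (median -0.01). The difference between these classes was not tested. Changes of the 69 genes under the hairpin had a Spearman correlation of -0.302 with exon length (-0.0792 over all genes), and with an offset for gene length their median was 0.08. For 26 of the 69, the 95% interval of the change lay within 2-fold in both directions, so that for the other 43 a 2-fold change in at least 1 direction was not outside the interval.

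In SvbACT enteroblasts, none of the 69 genes changed relative to controls by edgeR's quasi-likelihood test, beside 4.46% of all genes, and DESeq2 called 0. At an unadjusted p under 0.05, 4 lay lower and 1 higher, and the 4 are 5.80% of the members beside 9.68% of all genes that were lower at this mark. mRpL3, whose bacterial counterpart lies next to the peptidyl transferase centre, had 13.1, 15.4 and 5.11 CPM in SvbACT, against 20.7, 25.0 and 16.5 CPM in controls. The difference was -0.89 ± 0.38 (edgeR adjusted p = 0.231), and the groups did not overlap. mRpL49 had 18.4, 13.5 and 11.9 CPM in SvbACT, against 20.2, 30.3 and 20.9 CPM in controls (-0.71 ± 0.32, adjusted p = 0.271). mRpL24, whose bacterial counterpart lies near the exit of the peptide tunnel, went the other way. It had 17.7, 24.0 and 19.7 CPM in SvbACT and 11.7, 13.1 and 11.2 CPM in controls, a difference of 0.76 ± 0.34 (adjusted p = 0.255) with no overlap. The remaining genes under the unadjusted mark were mRpS31 and mRpS24.

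The median difference of the 69 genes between SvbACT and controls was -0.27, against -0.01 for all genes, with 54 below 0. It too depended on control replicate 2. Without that library the median was -0.06 and 38 of the genes lay below 0. Without SvbACT replicates 2 and 3, the 2 with many undetected genes, the median was -0.21 and 44 lay below 0.

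In SvbREP enteroblasts, none of the 69 genes changed relative to controls by edgeR's quasi-likelihood test, beside 2.08% of all genes, and DESeq2 called 0. None had an unadjusted p under 0.05, beside 430 higher and 613 lower among all 8069 genes. When the replicate number was fitted as a block, the count among the 69 was still 0, while that over all genes was 290 in place of 168. The smallest p-values belonged to mRpL11, mRpL28 and mRpL10. mRpL11 and mRpL10 form the base of the stalk that carries mRpL12. mRpL11 had 10.6, 9.35 and 5.60 CPM in SvbREP, against 3.24, 5.03 and 3.35 CPM in controls. These groups did not overlap, and the difference was 1.14 ± 0.54 (edgeR adjusted p = 0.389). mRpL10 had 19.1, 18.2 and 9.81 CPM in SvbREP and 10.7, 7.40 and 10.9 CPM in controls, which overlapped (0.73 ± 0.38, adjusted p = 0.448). mRpL28 had 27.5, 30.1 and 42.5 CPM in SvbREP, against 14.0, 26.1 and 21.5 CPM in controls (0.68 ± 0.34, adjusted p = 0.417). The median difference of the 69 genes was 0.20, against -0.02 for all genes, with 55 above 0, and it was 0.46 without control replicate 2.

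Among the 4 comparisons fitted, the median lay farthest from 0 between the 2 overexpressed forms of Shavenbaby. SvbACT was not fitted here against RNAiSvb, whose sums also lay wholly above those of SvbACT. For that pair the authors' deposited edgeR results call 0 of the 69 genes, beside 10.7% of all genes in their table. In SvbACT enteroblasts 59 of the 69 genes had a lower estimate than in SvbREP enteroblasts (85.5%, beside 48.9% of all genes below 0), and the median difference was -0.44, against 0.01 for all genes. In 18 genes all 3 SvbACT libraries lay below all 3 SvbREP libraries (26.1%, beside 10.1% of all genes), and in 0 genes above. No single gene passed edgeR's quasi-likelihood test, which called 7.21% of all genes. At an unadjusted p under 0.05, 11 of the 69 were lower (15.9%, beside 9.94% of all genes) and 0 higher. DESeq2 called 3, all lower, namely mRpL12, mRpL3 and mRpS24, beside 461 of all 8069 genes lower and 354 higher. The authors' deposited table marks the same 3 genes as lower and no other of the 69, beside 9.15% of its genes called. Genes of 1 library share its preparation and depth, so that these counts over genes are descriptions of 6 libraries.

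mRpL12 lies at chr3L:8956791-8957584 on the plus strand (BDGP6.54) and shares no exon with another gene. It had 46.9, 32.6 and 35.8 CPM in SvbACT, against 68.0, 71.7 and 53.7 CPM in SvbREP. The RNAiSvb libraries had 63.3, 65.2 and 61.8 CPM and the controls 46.9, 62.8 and 37.7. The highest SvbACT library thus lay under the lowest SvbREP and RNAiSvb libraries but level with a control. The difference between SvbACT and SvbREP was -0.75 ± 0.24 (95% interval -1.26 to -0.25, edgeR adjusted p = 0.0718). In the authors' deposited table it was -0.79 with an adjusted p of 0.0405.

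mRpL3 lies on the X chromosome, at chrX:15761248-15762663 on the plus strand, and likewise shares no exon. It had 13.1, 15.4 and 5.11 CPM in SvbACT, against 30.5, 28.2 and 16.3 CPM in SvbREP. The third replicate was the lowest in both groups, and the groups did not overlap. The difference was -1.18 ± 0.38 (interval -1.98 to -0.37, edgeR adjusted p = 0.0772), and -1.21 with an adjusted p of 0.0376 in the authors' deposited table.

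mRpS24, the counterpart of the bacterial protein S3 at the entry of the message channel, lies at chr3R:24162829-24163545 on the minus strand. It had 10.3, 3.33 and 7.76 CPM in SvbACT and 14.6, 17.9 and 23.8 CPM in SvbREP. The groups did not overlap, and the difference was -1.37 ± 0.41 (interval -2.24 to -0.50, edgeR adjusted p = 0.0546). The authors' deposited table gives -1.40 with an adjusted p of 0.0195. Of its exon bases 55.3% are shared with TBC1d7 on the opposite strand, and whether the counting used strand is not stated, so that its reads may in part belong to that gene.

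These 3 genes lay on both sides of the threshold depending on the libraries and tool. When replicate numbers were fitted as a block, mRpL3 passed (edgeR adjusted p = 0.0379). Without SvbACT replicate 1 the genes called were mRpL12, mRpL34, mRpL50 and mRpS24, and without SvbREP replicate 3 they were mRpL12, mRpL3 and mRpL36. Without SvbACT replicate 2 the only one was mRpL3, without SvbACT replicate 3 it was mRpL43, and without SvbREP replicate 1 it was mRpS24. The direction of mRpL12, mRpL3 and mRpS24 was the same in each of these fits. Without SvbACT replicates 2 and 3 and SvbREP replicate 3 together, the median of the 69 genes was -0.39, 61 of them lay below 0, and 0 were called, with 1 SvbACT library assumed to vary like the other groups.

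**Figure D3:**
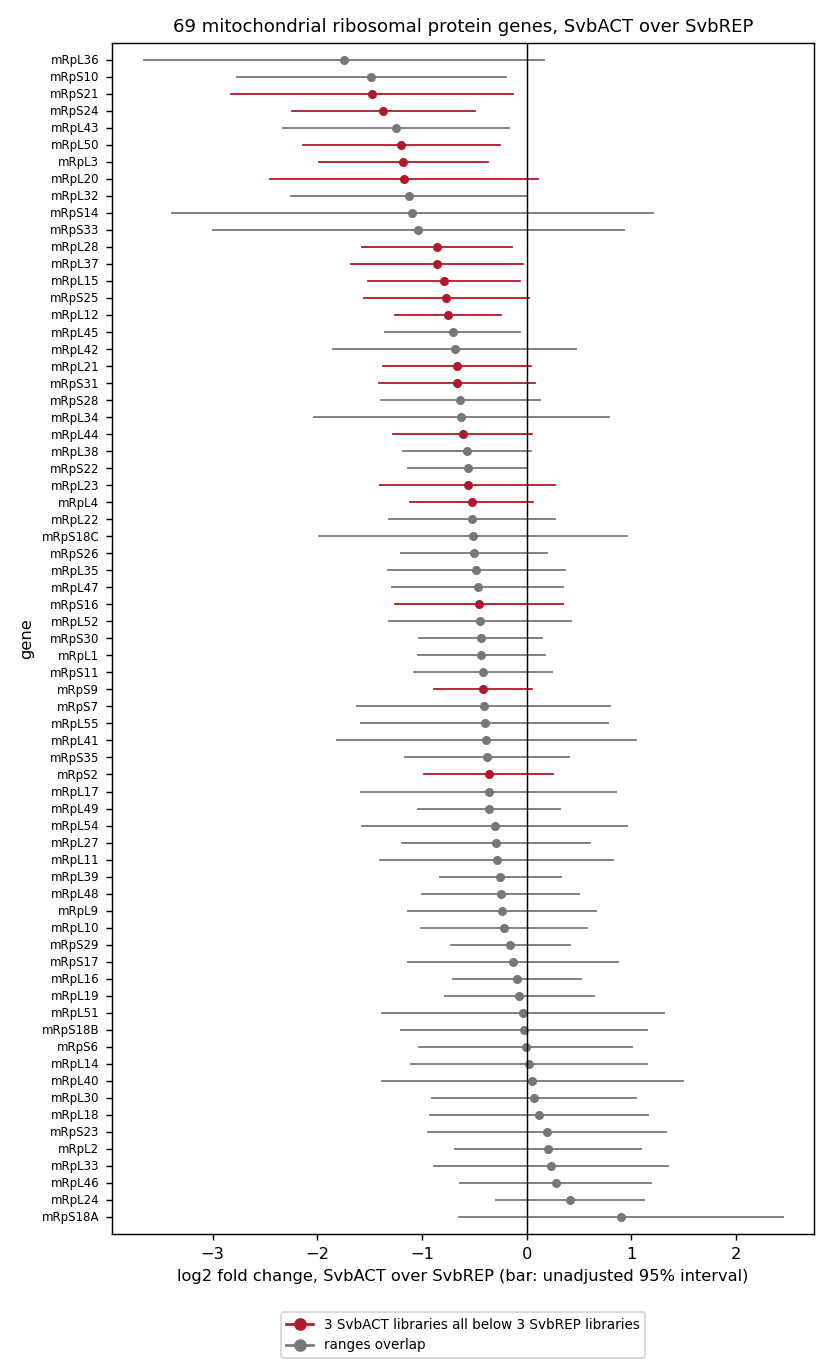
Log2 fold change between SvbACT and SvbREP for each of the 69 genes (point) with its unadjusted 95% interval (bar), coloured where the 3 SvbACT libraries all lie below the 3 SvbREP libraries. 59 points lie below 0, 18 genes are coloured, and the intervals are wide, with 7 of the 69 inside 2-fold on both sides.

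The other 8 genes with an unadjusted p under 0.05 between SvbACT and SvbREP were mRpL50, mRpL28, mRpS10, mRpL43, mRpS21, mRpL45, mRpL15 and mRpL37, with differences between -1.48 (mRpS10) and -0.71 (mRpL45) and adjusted p-values of 0.134 to 0.236 by edgeR's test. mRpL50 had 12.4, 3.56 and 5.68 CPM in SvbACT, against 15.6, 19.4 and 14.9 CPM in SvbREP, with no overlap. mRpL15, the counterpart of a bacterial protein of the large-subunit core, had 11.1, 11.2 and 15.7 CPM in SvbACT, against 24.3, 18.2 and 23.3 CPM in SvbREP, again with no overlap. mRpL43 overlapped, with 7.12, 2.38 and 14.6 CPM in SvbACT and 18.2, 13.0 and 27.1 CPM in SvbREP. Both subunits, as split by symbol letter, contributed, with 37 of 45 large-subunit genes (median -0.43) and 22 of 24 small-subunit genes (median -0.45) below 0. Likewise 36 of the 43 genes with a bacterial counterpart (median -0.43) and 22 of the 25 without one (median -0.44) lay below 0.

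The 10 genes at or above 0 included mRpL2, the counterpart of a bacterial protein beside the peptidyl transferase centre, at 0.20 ± 0.42, and mRpL24 at 0.41. The highest estimate was that of mRpS18A, at 0.90 ± 0.73 (interval -0.65 to 2.45, edgeR adjusted p = 0.582). It had 10.3, 8.79 and 3.79 CPM in SvbACT and 8.20, 1.77 and 1.87 CPM in SvbREP, so that the groups overlapped. The even genes mRpL39 and mRpL16 had differences of -0.25 ± 0.27 and -0.10 ± 0.29, and their intervals of -0.83 to 0.33 and -0.71 to 0.52 exclude a 2-fold difference.

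**Figure D4:**
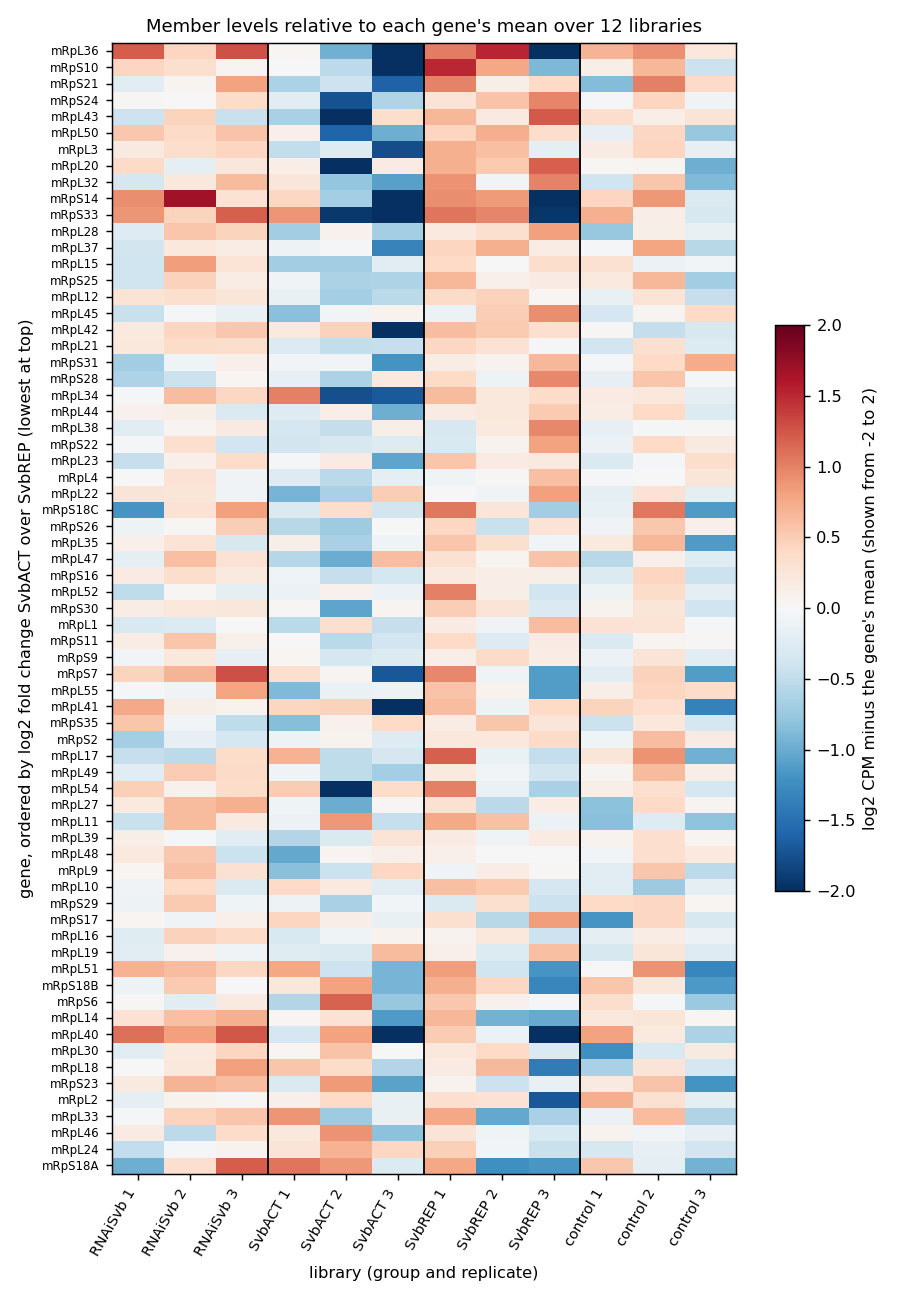
Deviation of each gene's log2 CPM from its own mean over 12 libraries (colour, shown from -2 to 2), with libraries in columns by group and genes in rows ordered by the log2 fold change between SvbACT and SvbREP. Blue cells gather in the SvbACT columns of the upper rows and in control replicate 3, and the darkest cells lie in SvbACT replicates 2 and 3 and SvbREP replicate 3.

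Library by library, the median deviation of the 69 genes was -0.08, -0.31 and -0.36 in SvbACT, 0.41, 0.14 and 0.04 in SvbREP, -0.02, 0.30 and 0.24 in RNAiSvb and -0.05, 0.33 and -0.25 in controls on the log2 scale. Every SvbACT library lay below every SvbREP library. The controls spanned almost the whole range, from replicate 3 at its low end to replicate 2 at its high end, and overlapped both SvbACT and SvbREP. Across the 12 libraries the genes moved together in part. The Pearson correlation of a gene's log2 CPM with the median profile of the other 68 ran from -0.163 to 0.917 with a median of 0.487, and 65 of the 69 were above 0. This describes 12 libraries that differ in depth and quality. mRpL12 had 0.895, whereas mRpS22 had 0.203.

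Markers of other cells differed between the same groups. The summed level of 13 enterocyte markers was 424 to 722 CPM in SvbACT, 874 to 1047 CPM in SvbREP, 342 to 422 CPM in RNAiSvb and 571 to 763 CPM in controls, and that of 8 stem cell and enteroblast markers was 6346 to 7340, 4026 to 4736, 3732 to 4777 and 5813 to 7189 CPM in the same order of groups. By size, these sums rested mostly on few genes. In the enterocyte list, 2 myosins carried the gap, Myo31DF with 344 to 480 CPM in SvbACT and 664 to 892 CPM in SvbREP, and Myo61F with 34.7 to 69.9 CPM in SvbACT and 124 to 184 CPM in SvbREP. The other 11 summed to 194, 171 and 21.8 CPM in SvbACT and 72.7, 44.6 and 30.8 CPM in SvbREP, which overlapped, and the digestive enzyme gene Jon65Aiv was higher, with 23.2, 36.4 and 10.4 CPM in SvbACT and 3.95, 4.93 and 1.87 CPM in SvbREP. In the progenitor list zfh2 made up most of the gap, with 2598 to 3710 CPM in SvbACT and 1226 to 1484 CPM in SvbREP. E(spl)m3-HLH (410 to 566 and 167 to 261 CPM) and E(spl)mbeta-HLH (370 to 411 and 259 to 333 CPM) were also higher without overlap. So was klu, with 597 to 857 CPM in SvbACT and 481 to 587 CPM in SvbREP. The others overlapped, namely peb (969 to 1293 and 990 to 1354 CPM), Sox21a (236 to 337 and 149 to 413 CPM), Sox100B and Su(H). Enteroendocrine markers summed to 11.4 to 52.3 CPM in SvbACT and 5.60 to 15.3 CPM in SvbREP, which overlapped. Their sums were 36.4 to 97.5 CPM in RNAiSvb and 6.74 to 28.3 CPM in controls. Visceral muscle markers summed to 30.9 to 41.5 CPM in SvbACT and 18.7 to 29.6 CPM in SvbREP. In RNAiSvb they summed to 14.6 to 21.6 CPM and in controls to 32.4 to 81.1 CPM. The part of these cells in the result was not tested.

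Genes that work with the mitochondrial ribosome were set beside it. Of 6 further mitochondrial ribosomal protein genes with other symbols, 0 were called in any comparison by edgeR's quasi-likelihood test, and all 6 lay below 0 between SvbACT and SvbREP, 2 of them with an unadjusted p under 0.05 and 1 called by DESeq2. tko (technical knockout), the S12 protein of the decoding site, had 16.4, 7.37 and 15.5 CPM in SvbACT, against 26.0, 21.2 and 30.4 CPM in SvbREP, with no overlap and a difference of -0.96 ± 0.33 (adjusted p = 0.0924). bonsai, the S15 protein, had 18.4, 24.2 and 30.3 CPM in SvbACT and 35.2, 37.8 and 25.2 CPM in SvbREP, which overlapped (-0.44 ± 0.28, adjusted p = 0.435). All 9 listed mitochondrial translation factor genes were likewise below 0 in this comparison (median -0.48, 0 called by edgeR's test or DESeq2, 1 with an unadjusted p under 0.05), as were 13 of 17 genes of mitochondrial tRNA charging (median -0.22, 0 called by either tool, 1 under the unadjusted mark).

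The ribosomal RNAs that these proteins bind overlapped between the groups. The large mitochondrial rRNA (mt:lrRNA) had 1998, 3223 and 1780 CPM in SvbACT, against 4940, 988 and 1321 CPM in SvbREP. The small rRNA (mt:srRNA) had 518, 879 and 410 CPM in SvbACT, against 1267, 327 and 353 CPM in SvbREP. In both RNAs SvbREP replicate 1 was far above its replicates, and the differences were -0.05 ± 0.67 and -0.11 ± 0.62 (edgeR adjusted p = 0.984 and 0.957). Intervals of this width leave a 2-fold difference possible. Of 19 mitochondrially encoded genes, 0 were called between SvbACT and SvbREP by edgeR's test or DESeq2, with 2 lower at an unadjusted p under 0.05. All 19 lay below 0 in this comparison (median -0.51), and in SvbACT over controls 10 of the 19 did (median -0.10). In 1 of the 19 all 3 SvbACT libraries lay below all 3 SvbREP libraries (5.26%, beside 10.1% of all genes). Single SvbREP libraries stood far above the others in some of these genes. mt:ATPase8 had 73.7, 56.8 and 69.7 CPM in SvbACT, against 193, 49.1 and 86.4 CPM in SvbREP. mt:tRNA:Val-TAC had 15.9, 33.5 and 29.7 CPM in SvbACT, against 42.2, 31.8 and 396 CPM in SvbREP. One of the 19 was called against controls, mt:tRNA:Ile-GAT, beside 4.46% of all genes for SvbACT and 2.08% for SvbREP. It had 1.16, 7.13 and 3.41 CPM in SvbACT and 1.21, 1.64 and 26.2 CPM in SvbREP, against no count in any control library (edgeR adjusted p = 0.0467 and 0.0299).

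Among genes for the copying and transcription of mitochondrial DNA, 1 of 9 was called, between SvbACT and SvbREP, beside 7.21% of all genes. PolrMT, the mitochondrial RNA polymerase, fell in SvbACT to 69.1, 93.9 and 99.8 CPM, against 120, 143 and 156 CPM in SvbREP (-0.67 ± 0.20, edgeR adjusted p = 0.0464). This call was lost without any 1 of SvbACT replicates 1, 2 and 3 or SvbREP replicates 2 and 3, with adjusted p-values up to 0.149. Of 15 listed nuclear regulators, ewg (erect wing), the fly homologue of the mammalian nuclear respiratory factor NRF-1, rose in SvbACT and kept its call in every setting. It had 274, 237 and 251 CPM in SvbACT, against 99.2, 94.7 and 99.0 CPM in SvbREP (1.38 ± 0.18, adjusted p = 6.78e-05) and 142, 121 and 139 CPM in controls (0.92 ± 0.17, adjusted p = 0.0043). srl (spargel), the homologue of the coactivator PGC-1, rose with the hairpin, at 265, 284 and 304 CPM in RNAiSvb, against 161, 204 and 129 CPM in controls (0.79 ± 0.23, adjusted p = 0.0434). That call was lost without control replicate 1 or 3 or any 1 RNAiSvb replicate, with adjusted p-values up to 0.186.

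The nuclear genes of the respiratory chain and ATP synthase, the complexes that the mitochondrial ribosome helps to build, lay in the same direction as the 69 genes. Of 66 such genes, 62 lay below 0 between SvbACT and SvbREP (93.9%, beside 48.9% of all genes, with a median of -0.58). By edgeR's test 6 fell and 1, ND-15, rose, beside 7.21% of all genes called. The 6 were Cyt-c1, ATPsynC, ATPsynbeta, COX8, ATPsynB and ND-23. Relative to controls, 5 of the 66 fell in SvbACT (median -0.44, beside 4.46% of all genes called), namely ATPsynC, Cyt-c1, ATPsynbeta, ND-30 and SdhB, and ATPsyngamma fell under the hairpin (-0.82 ± 0.22, edgeR adjusted p = 0.0259). Cyt-c1, a subunit of complex III, had 122, 107 and 135 CPM in SvbACT, against 198, 209 and 241 CPM in SvbREP (-0.83 ± 0.18, edgeR adjusted p = 0.00828) and 195, 220 and 184 CPM in controls (-0.72 ± 0.18, adjusted p = 0.0296). The call against SvbREP stayed when any 1 replicate was left out but not without SvbACT replicates 2 and 3 and SvbREP replicate 3 together (adjusted p = 0.136), and the call against controls was lost without any 1 of these control or SvbACT replicates, with adjusted p-values up to 0.148. ATPsynC, the membrane ring subunit of ATP synthase, had 861, 551 and 600 CPM in SvbACT, against 1244, 1232 and 1022 CPM in SvbREP (-0.80 ± 0.21, adjusted p = 0.0247), a call lost without SvbACT replicate 2 or 3 or SvbREP replicate 2 (adjusted p up to 0.102).

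The genes of the cytoplasmic ribosome lay the other way. Of 76 such genes, 75 lay above 0 between SvbACT and SvbREP, with a median of 0.38, and 74 lay above 0 between SvbACT and controls, with a median of 0.33. Over all 8069 genes, 4125 and 3995 lay above 0 in these comparisons. Between SvbACT and SvbREP 18 of the 76 were higher and 0 lower at an unadjusted p under 0.05, beside 752 higher and 802 lower of all genes. RpLP0 was the only one called by edgeR's test, in SvbACT over SvbREP (0.70 ± 0.19, edgeR adjusted p = 0.0298), beside 7.21% of all genes. It had 1991, 3107 and 2451 CPM in SvbACT, against 1396, 1492 and 1747 CPM in SvbREP. This call was lost without SvbACT replicate 2 or 3 or SvbREP replicate 1 or 2, with adjusted p-values up to 0.194. The plot of medians per gene list shows that the 2 ribosomes lay on opposite sides of 0 in both comparisons of SvbACT. Both comparisons share the SvbACT libraries. The difference between the lists was not tested.

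**Figure D5:**
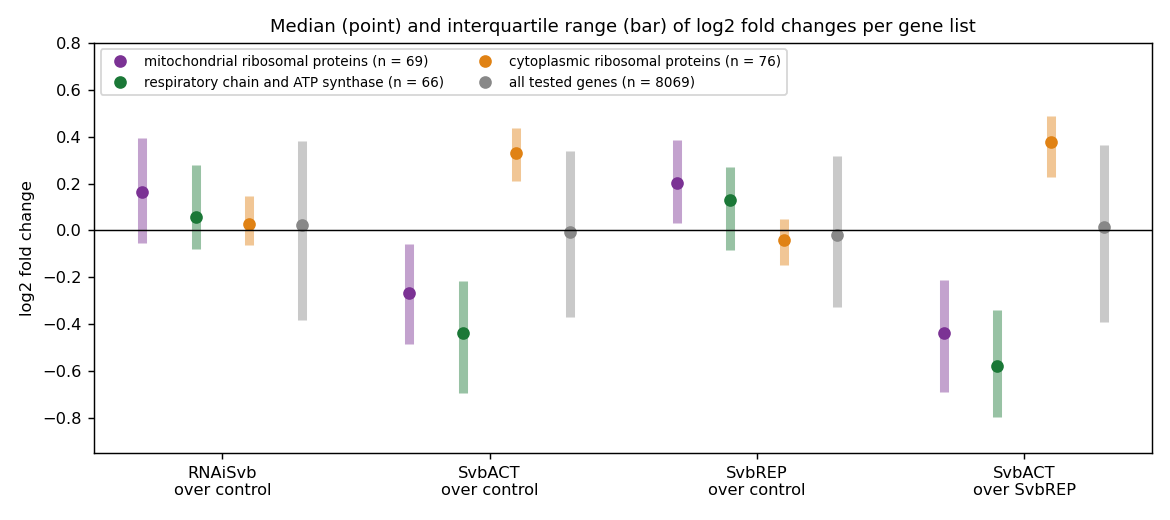
Median (point) and interquartile range (bar) of the log2 fold changes of 4 sets of genes in 4 comparisons, of which those with controls share the control libraries. In SvbACT over SvbREP the medians are -0.44 for the 69 mitochondrial ribosomal protein genes, -0.58 for the respiratory chain and ATP synthase, 0.38 for cytoplasmic ribosomal proteins and 0.01 for all 8069 tested genes.

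Outside the 69, the genes whose log2 CPM over the 12 libraries was most like the median profile of the 69 were cype (r = 0.929), CG3817 (0.904), Pef (0.890), ATPsynD (0.890) and ND-B14 (0.886). Of these 5, cype, ATPsynD and ND-B14, encode subunits of cytochrome c oxidase, ATP synthase and complex I. The values describe 12 libraries that share their differences in depth. cype had 86.6, 44.2 and 42.2 CPM in SvbACT, 139, 87.5 and 79.9 in SvbREP, 85.9, 96.5 and 98.8 in RNAiSvb and 84.1, 102 and 55.8 in controls, so that it was high in the same control library, replicate 2, as the ribosomal genes.

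The 69 genes lie scattered over the genome, with 11 on the X chromosome, 11 on 2L, 11 on 2R, 15 on 3L and 21 on 3R. Exons of 40 of them overlap another gene, mostly on the opposite strand. In 6 (mRpL17, mRpL48, mRpS9, mRpS14, mRpS21 and mRpS24) at least 20% of exon bases are shared, and their values are uncertain for the reason given for mRpS24. Exon length did not order the differences between SvbACT and SvbREP among the 69 (Spearman correlation 0.00247), and with an offset for gene length their median was -0.39.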

How the data were processed

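The 69 genes and the other lists were chosen with earlier results of these data known. Read counts per gene are whole numbers deposited by the authors, made with STAR 2.5.2b and HTSeq 0.6.0 on dm6, per the submitters' processing notes. How strand was used is not given in the sources used here. The log2 fold changes, the p-values (with 1 adjusted column, equal to the Benjamini-Hochberg values of SvbACT over SvbREP) and the calls, a score of -1, 0 or 1, are the authors' deposited edgeR results and were only compared. Ensembl's annotation (BDGP6.54, release 115) gave symbols and exon lengths, and 116 genes had no symbol. All coordinates are of that build.

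The fit used edgeR 4.0.16 in R 4.3.3 (TMM scaling, filterByExpr by group, robust quasi-likelihood F test, 1 mean per group over all 12 libraries, Benjamini-Hochberg over 8069 genes, threshold 0.05). SE is the size of the log2 fold change over the square root of F, and CPM uses TMM-scaled totals. Floors of 3 counts cover counting error only, since reads carried no molecular identifiers. Log2 CPM values have a prior count of 2. The subunit followed the symbol letter. Whether members have a bacterial counterpart was classed by the current names of their mammalian homologues, and mRpL55 was left unclassed. The list of further mitochondrial ribosomal genes gained CG4866 by its RefSeq synonym. Named genes were those with the smallest p-values per comparison, the 5 highest and 5 lowest per length, the 3 most and 3 least variable, members at 0, called genes of other lists and the 5 most alike, and mRpL24, mRpL34, mRpL50 and others were added after their values were seen. Tested on simulated counts of 7933 genes for SvbACT over control, the fit called 154 of 198 changed genes and 4 unchanged ones, and 0 genes where none were changed. Same-numbered libraries deviated together in SvbREP and control (r = 0.175, 0.108 and 0.256 over genes). For that comparison the counts with the replicate block are therefore given beside the reported ones, which come from the fit without a block. Treating the numbers as pairs rests on the data, since the labels do not say that a number marks a day. Alternatives used DESeq2 1.42.0, other scalings, no filter, the 2 groups alone, the replicate block and each replicate left out. The gene-length offset and joint omissions of libraries were chosen after seeing the data. A planned motif search in promoters was not run.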

Additional observations from a re-analysis of the deposited data

How the results depend on the processing

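Among counts of called members, 67 of 81 values from alternatives were within 1.5 times the reported one, and for RNAiSvb, SvbACT and SvbREP over control they were 0 in every setting. For SvbACT over SvbREP the count was 1 with DESeq2's size factors or library totals in edgeR (mRpS24), 1 with the replicate block, alone or with a gene-length offset (mRpL3), and 3 with DESeq2's Wald test. Leaving out 1 replicate gave 0 to 4. For any difference among the 4 groups it was 1 with DESeq2's likelihood ratio test (mRpL12) and 1 with the gene-length offset and replicate block (mRpL3), and 0 to 1 when 1 replicate was left out. The median change of the members kept its direction in all settings. Leaving out 1 replicate gave 0.11 to 0.41 for RNAiSvb over control, -0.38 to -0.0557 for SvbACT over control, 0.10 to 0.46 for SvbREP over control and -0.59 to -0.35 for SvbACT over SvbREP, and control replicate 2 set the ends of 0.41, -0.0557 and 0.46. The replicate block gave medians of 0.20, -0.28, 0.23 and -0.44 in that order. Outside SvbREP over control, same-numbered libraries had r of 0.062 to 0.232 for RNAiSvb and 0.0186 to 0.106 for SvbACT, all above 0. For SvbACT over SvbREP r was -0.0174 to 0.299. Over all genes, the calls ranged from 407 to 1091 (686 reported), 175 to 612 (360), 54 to 317 (168) and 340 to 826 (582). Of 346 alternative values of named members, 331 stayed on their side of the threshold, 15 passed it, all lower in SvbACT than in SvbREP, and 0 turned round. DESeq2 called 15 genes of the respiratory chain and ATP synthase lower in SvbACT than in SvbREP, against 6 by edgeR, and 3 of the cytoplasmic ribosome higher, against 1. Of 204 values of genes of other lists 69 lost their call and 0 turned round. The causes were not tested. With member counts this low, single genes had a median SE of about 0.41 on the log2 scale, and the 95% interval lay within 2-fold for 26, 16, 22 and 7 of the 69 in the 4 comparisons.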
